A study of Rattus norvegicus with 50 samples.

Results

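Prostaglandins are made from arachidonic acid in a short chain of enzymes, and 10 genes of that chain and its side branches were followed in the rat lung. They are Pla2g2d, Ptgs1, Ptgs2, Ptges, Ptgis, Tbxas1, Ptgds, Hpgds, Hpgd and Alox5, taken from a fixed list of symbols and measured with the probe set of each gene that had the highest mean over all arrays. They are 10 of the 13438 genes tested, and the list was chosen with earlier results of these data known. The samples were total RNA from the distal airways and alveoli, dissected from the right caudal lobe of male Fischer 344 rats that were 7 to 8 weeks old on receipt. The rats breathed air with nickel subsulfide (Ni3S2) aerosol at 0 (controls), 0.04, 0.08, 0.15 or 0.60 mg/m3, for 6 hours on 5 days of each week, and were studied after 1 week (5 exposure days) or 4 weeks (20 exposure days). The 10 groups had 5 arrays each, from the 5 of 8 rats whose RNA was best, so n = 5 throughout, and the number of arrays limits the precision. No genotype, transgene or other agent is named in the labels, and controls of each time had the same strain, sex and tissue. Levels are log2 intensities, so a difference of 1 is a 2-fold change, and levels of different genes cannot be compared on this scale.

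A phospholipase A2 frees arachidonic acid from membranes, and the cyclooxygenases encoded by Ptgs1 and Ptgs2 turn it into prostaglandin H2. Ptgs1 is the constitutive enzyme of many cells and of platelets, while Ptgs2 is the form that inflammatory stimuli induce. Terminal synthases then decide the product: Ptges makes prostaglandin E2, Ptgis prostacyclin, Tbxas1 thromboxane, and Ptgds and Hpgds prostaglandin D2. Hpgd inactivates prostaglandins, a task for which the lung is known, and Alox5 takes arachidonic acid into the leukotrienes instead. In inflamed tissue Ptgs2 and Ptges are known to be induced together.

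The 3 members with the largest called changes at 0.60 mg/m3 after 4 weeks were Ptges, Pla2g2d and Ptgs2, and the 250 bases before the start of each are shown because promoters are where many factors that raise or lower a gene's RNA bind. They come from RefSeq, build GRCr8, where Ptges lies at chr3:34586988-34587237 (minus strand), Pla2g2d at chr5:156299382-156299631 (plus strand) and Ptgs2 at chr13:64713813-64714062 (plus strand). The RefSeq table used here held a promoter for 8 of the 10 members. Each is written 5′ to 3′, and capitals mark the motif matches described after them.
Ptges: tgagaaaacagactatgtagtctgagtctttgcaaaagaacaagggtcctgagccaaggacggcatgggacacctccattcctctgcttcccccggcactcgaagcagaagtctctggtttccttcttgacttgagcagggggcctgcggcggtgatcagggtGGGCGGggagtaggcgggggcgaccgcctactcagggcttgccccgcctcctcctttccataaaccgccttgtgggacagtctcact
Pla2g2d: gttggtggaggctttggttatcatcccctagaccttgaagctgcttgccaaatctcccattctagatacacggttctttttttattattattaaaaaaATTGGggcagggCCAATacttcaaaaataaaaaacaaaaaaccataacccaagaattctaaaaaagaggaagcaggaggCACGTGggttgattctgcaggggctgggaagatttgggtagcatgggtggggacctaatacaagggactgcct
Ptgs2: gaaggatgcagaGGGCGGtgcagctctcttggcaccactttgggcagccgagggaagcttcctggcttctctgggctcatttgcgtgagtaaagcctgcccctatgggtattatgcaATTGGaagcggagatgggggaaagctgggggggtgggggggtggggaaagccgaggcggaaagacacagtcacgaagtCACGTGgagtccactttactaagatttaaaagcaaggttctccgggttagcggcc

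The motifs were searched on both strands. They were the TATA box with the letters TATAAA, the CCAAT box, the GC box read as GGGCGG, the AP-1 site read as TGACTCA, and the cAMP response element read as TGACGTCA. The core of the hypoxia response element, ACGTG, and the NF-kB motif were searched as well. In the Ptges promoter the only match was a GC box from 87 to 82 bases before the start. The Ptgs2 promoter held a GC box from 238 to 233, a CCAAT box on the minus strand from 133 to 129, and ACGTG on both strands from 55 to 50 bases before the start, where the matches overlap in the palindrome CACGTG. The Pla2g2d promoter had the same palindrome from 73 to 68 bases before the start, and CCAAT on the minus strand from 152 to 148 and on the plus strand from 140 to 136. Of 33469 rat promoters of this length, 16.6% held ACGTG, 34% CCAAT and 30.5% GGGCGG, so each of these matches is common. The share of promoters with the whole palindrome CACGTG was not counted. Neither TATAAA, AP-1, the cAMP element nor the NF-kB motif was found in the 3 windows, against 12.9%, 4.05%, 1.59% and 16.4% of all promoters. A match is only a run of letters, and a window without one says nothing of the factor.

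Before the results, a property of the whole series bears on them. On the first principal component, which held 63.5% of the variance, the 1-week controls averaged -58.0 and the 1-week arrays of 0.04 mg/m3 averaged -76.5, far from the 4-week groups (means 20.4 to 38.2). The 1-week arrays of 0.08 mg/m3 were spread between them, from -64.7 to 5.46, and those of 0.15 and of 0.60 mg/m3 averaged 8.56 and 2.52. Between the controls of the 2 times, 73.5% of all genes were called, and 65.1% to 67.4% of genes were called at 0.60 and 0.15 mg/m3 against controls at 1 week. Age and any difference in processing cannot be told apart from time here. The labels name no processing batch, so within a time any difference in processing between groups cannot be told apart from concentration either. This bears most on 1 week, where the groups lie far apart on this component. The comparisons within 4 weeks do not use the 1-week arrays except for the common estimate of spread, and they come first. As a check of the tissue, the mean of 10 alveolar type 2 markers lay between 11.2 and 11.5 in the 10 groups. That of 7 club cell markers ran from 10.9 to 12.0. Other group means varied more, from 6.51 to 9.39 for heart muscle, 7.56 to 9.24 for smooth muscle and 5.76 to 7.25 for B cells. The check therefore shows lung epithelium in every group, and not the same mix of cells. In bulk RNA, fewer cells of a type and less RNA per cell cannot be told apart.

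After 4 weeks at 0.15 and at 0.60 mg/m3 Ptges and Ptgs2 rose, while Pla2g2d, Ptgs1 and Alox5 fell; at 0.04 and 0.08 mg/m3 no member was called lower. At 0.60 mg/m3, 7 of the 10 members were called at an adjusted p under 0.05 (limma), 3 higher (Ptges, Ptgs2, Tbxas1) and 4 lower (Pla2g2d, Ptgs1, Alox5, Ptgds), where 17.4% of all genes were called (9.47% higher and 7.9% lower). In all 7 the 5 exposed and the 5 control arrays did not overlap, which held for 19.5% of all genes. The comparison of 0.15 mg/m3 with controls called 5 members (Ptges and Ptgs2 higher, Pla2g2d, Ptgs1 and Alox5 lower) against 3.5% of all genes (1.92% higher and 1.58% lower), and the arrays of 6 did not overlap against 9.1% of all genes. At 0.08 mg/m3, Ptges and Ptgis were called, both higher, against 8.54% of all genes (5.67% higher and 2.87% lower), and the arrays of these 2 members did not overlap against 8.19%. The same 2 members were called, again higher, at 0.04 mg/m3 against 12.9% of all genes (8.29% higher and 4.61% lower), while the arrays of 6 members did not overlap against 19.1%. The split of all called genes depends on scaling: with each array centred on its median, the higher share of called genes went from 54.5% to 37.1% at 0.60, from 66.4% to 36.5% at 0.08 and from 64.2% to 39.6% at 0.04 mg/m3, but no call of Ptges, Ptgis or the members named at the higher concentrations was lost. The 4 comparisons share their controls, so they are not independent of each other. Because the members were chosen with earlier results known, a count above the share of all genes, here or below, is no test of the family.

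**Figure D1:**
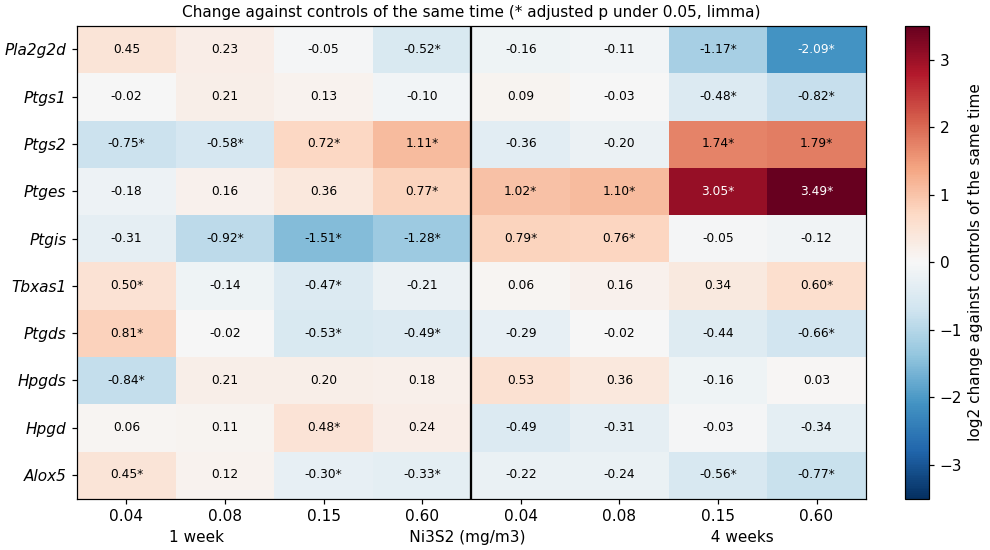
Log2 change of each of the 10 genes (rows) at each concentration (columns, mg/m3) against the controls of the same time, at 1 week on the left and 4 weeks on the right; colour gives the change and an asterisk an adjusted p under 0.05 (limma, n = 5). The row of Ptges goes from 1.02 at 0.04 mg/m3 to 3.49 at 0.60 mg/m3 after 4 weeks, and the row of Pla2g2d reaches -2.09.

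Ptges, the inducible microsomal prostaglandin E synthase, had the largest change of the members at 4 weeks. The control arrays read 3.97, 4.56, 4.16, 4.19 and 4.62, and the arrays of 0.60 mg/m3 read 7.65, 7.83, 7.78, 7.92 and 7.79. Those of 0.15 mg/m3 read 7.22, 7.35, 7.15, 7.40 and 7.64. Every array of both groups lay more than 2 log2 units above the highest control, and the 5 arrays of 0.60 mg/m3 lay above those of 0.15 mg/m3. The rise was 3.49 ± 0.23 (SE), or 11.3-fold, at 0.60 mg/m3 (adjusted p = 2.2e-15, limma) and 3.05 ± 0.23, or 8.31-fold, at 0.15 mg/m3 (adjusted p = 5.74e-13, limma). The control levels are close to the bottom of the scale, whose lowest value was 2.22 and where differences are compressed. Folds of Ptges against the 4-week controls are therefore rough values.

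Ptges was also above the controls at the lower concentrations. At 0.04 mg/m3 the arrays read 5.52, 5.19, 5.26, 5.43 and 5.22, a rise of 1.02 ± 0.23 (2.03-fold, adjusted p = 0.00258, limma). At 0.08 mg/m3 they read 6.27, 5.11, 5.23, 5.41 and 4.96, a rise of 1.10 ± 0.23 (2.14-fold, adjusted p = 0.0019, limma). None of these arrays overlapped the controls, and replicate 1 of 0.08 mg/m3 stood well above the other 4. A second probe set of Ptges, dimmer by its mean (4.84 against 6.54 over all arrays), rose by 2.44 at 0.60 mg/m3 and 1.78 at 0.15 mg/m3 with adjusted p = 2.48e-10 and 2.07e-06 (limma). On that probe set the changes at 0.04 and 0.08 mg/m3 were 0.40 and 0.53 with adjusted p = 0.319 and 0.187 (limma), so the calls at the 2 lower concentrations rest on 1 probe set.

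Ptgs2, the inducible cyclooxygenase that supplies the substrate of Ptges, rose at the 2 higher concentrations. The 4-week controls read 4.73, 5.92, 5.54, 5.19 and 5.29. The arrays of 0.15 mg/m3 read 7.20, 6.84, 6.90, 7.18 and 7.25, and those of 0.60 mg/m3 read 7.22, 7.39, 6.68, 7.34 and 6.99. All 10 exposed arrays were above the highest control, and the arrays of the 2 concentrations overlapped each other. The rise was 1.74 ± 0.25 (3.35-fold, adjusted p = 3.62e-06, limma) at 0.15 mg/m3 and 1.79 ± 0.25 (3.47-fold, adjusted p = 4.06e-07, limma) at 0.60 mg/m3. At 0.08 and 0.04 mg/m3 the differences were -0.20 and -0.36 with adjusted p = 0.679 and 0.377 (limma).

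Ptgs1, the constitutive cyclooxygenase, went the other way. Its 4-week controls read 8.24, 8.65, 8.71, 8.65 and 8.56, against 7.91, 8.22, 8.09, 7.99 and 8.19 at 0.15 mg/m3 and 7.65, 7.58, 7.76, 7.85 and 7.87 at 0.60 mg/m3. The groups did not overlap, although the first control array, at 8.24, lay just above the highest array of 0.15 mg/m3. Ptgs1 fell by 0.48 ± 0.10 (1.40-fold, adjusted p = 0.00174, limma) and by 0.82 ± 0.10 (1.76-fold, adjusted p = 3e-08, limma). A second probe set fell by 0.73 at 0.60 mg/m3 (adjusted p = 0.00233, limma) and read -0.47 at 0.15 mg/m3 (adjusted p = 0.171, limma).

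Pla2g2d, a secreted phospholipase A2 of immune cells, fell most. Its 4-week controls read 7.23, 6.48, 6.45, 7.06 and 7.01. At 0.15 mg/m3 the arrays read 5.76, 5.72, 5.82, 5.85 and 5.21, and at 0.60 mg/m3 they read 4.65, 4.81, 4.66, 4.49 and 5.14. The 3 groups formed separate bands with no overlap, and the highest array of 0.60 mg/m3 was just below the lowest of 0.15 mg/m3. The fall was 1.17 ± 0.20 on the log2 scale (2.26-fold, adjusted p = 0.000126, limma) at 0.15 mg/m3 and 2.09 ± 0.20 (4.27-fold, adjusted p = 6.18e-11, limma) at 0.60 mg/m3. At 0.04 and 0.08 mg/m3 the differences of -0.16 and -0.11 were below the SE of the fit. The arrays of 0.60 mg/m3 lay low on the scale, where differences are compressed, so folds of Pla2g2d there are rough values.

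**Figure D2:**
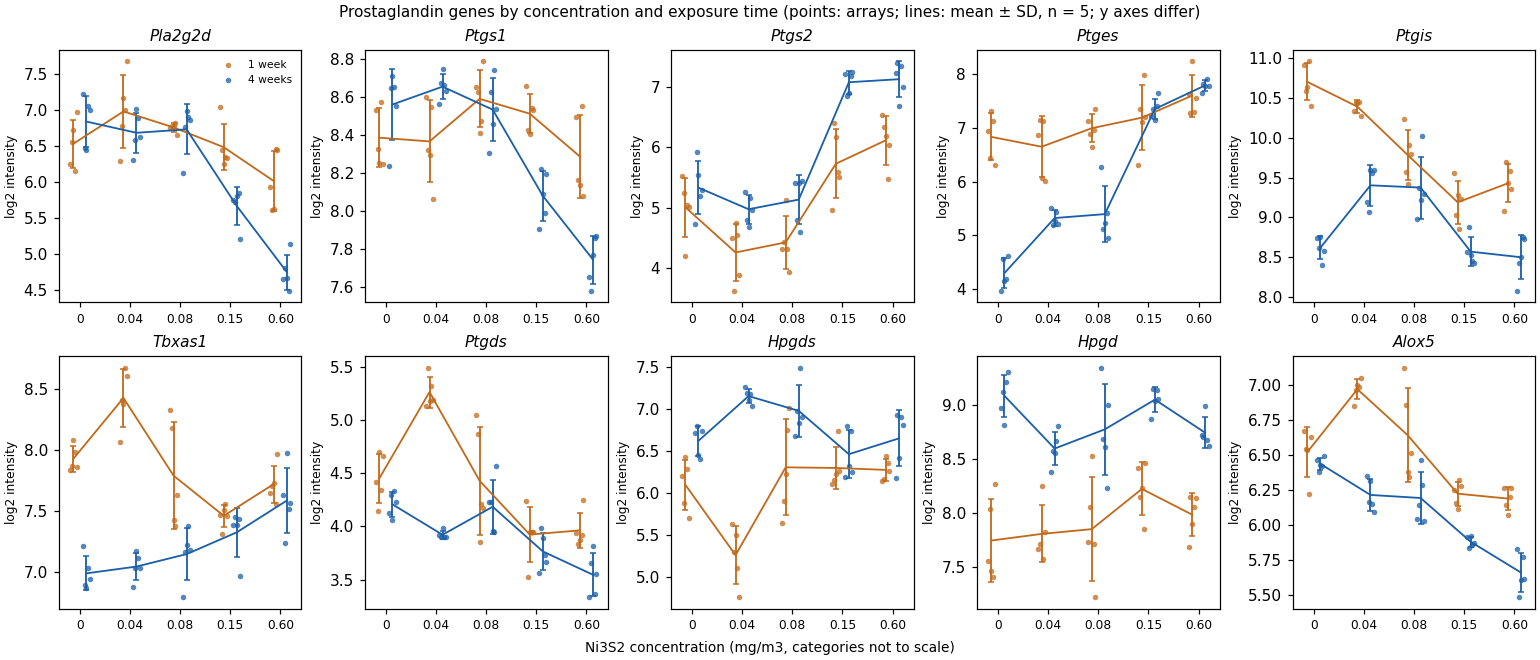
Log2 intensity of each member in every array by concentration (mg/m3, categories not to scale), with orange for 1 week and blue for 4 weeks; lines join group means, bars are the SD (n = 5) and the y axes differ between panels. In the blue series Ptges goes from a mean of 4.30 in controls to 7.79, Ptgs2 from 5.33 to 7.13 and Pla2g2d from 6.85 to 4.75.

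Alox5, which starts leukotriene synthesis, fell with smaller but tight differences. Its 4-week controls lay between 6.38 and 6.49, the arrays of 0.15 mg/m3 between 5.84 and 5.92, and those of 0.60 mg/m3 read 5.83, 5.49, 5.61, 5.78 and 5.61. All 3 groups were separate. Alox5 fell by 0.56 ± 0.10 (1.47-fold, adjusted p = 0.000132, limma) and by 0.77 ± 0.10 (1.71-fold, adjusted p = 3.97e-08, limma).

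Of the prostaglandin D2 synthases, Ptgds, the lipocalin type, was called lower at 0.60 mg/m3, where its arrays read 3.34, 3.66, 3.81, 3.37 and 3.55 against 4.12, 4.30, 4.06, 4.33 and 4.23 in controls. The groups did not overlap, and the fall was 0.66 ± 0.15 (1.58-fold, adjusted p = 0.000852, limma). These levels are close to the bottom of the scale, whose lowest value was 2.22, where differences are compressed. The difference of Ptgds at 0.15 mg/m3 was -0.44, with adjusted p = 0.0899 (limma), although its arrays did not overlap the controls either. Hpgds, the hematopoietic type found in mast cells and T cells, averaged 6.65 ± 0.33 (SD) at 0.60 mg/m3 and 6.62 ± 0.18 in controls, a difference of 0.03 ± 0.19 (adjusted p = 0.939, limma). Its largest difference of 4 weeks was 0.53 ± 0.19 at 0.04 mg/m3, where the arrays (7.04 to 7.27) lay above the controls (6.40 to 6.80) and the adjusted p was 0.0506 (limma). In those arrays 8 of 9 T cell markers and 5 of 5 B cell markers were higher, against 8.29% of all genes. The mean level of mast cell markers was 5.58 in both groups. The part of these cells in the Hpgds difference was not tested.

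Tbxas1, thromboxane synthase, was higher at 0.60 mg/m3. Its arrays there read 7.64, 7.24, 7.98, 7.52 and 7.57, and the controls 7.22, 6.90, 6.87, 7.03 and 6.94. The lowest exposed array was barely above the highest control. The rise was 0.60 ± 0.14 (1.51-fold, adjusted p = 0.00106, limma), and at 0.15 mg/m3 the difference was 0.34 (adjusted p = 0.203, limma).

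Hpgd, the enzyme that inactivates prostaglandins, passed the test at none of the 4 concentrations at 4 weeks. Its means were 9.09 ± 0.19 (SD) in controls, 8.60 ± 0.15, 8.78 ± 0.42, 9.05 ± 0.11 and 8.75 ± 0.14 in order of concentration. The largest difference was -0.49 at 0.04 mg/m3, where the arrays (8.38 to 8.80) lay below the controls (8.82 to 9.31) and the adjusted p was 0.0555 (limma). With each array centred on its median the same difference was -0.54 and was called (adjusted p = 0.0263, limma), and a second probe set gave -0.62 (adjusted p = 0.0248, limma).

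Ptgis, prostacyclin synthase, followed another course. After 4 weeks its controls read 8.74, 8.62, 8.75, 8.40 and 8.58, the arrays of 0.04 mg/m3 9.19, 9.07, 9.59, 9.56 and 9.60, and those of 0.08 mg/m3 8.98, 9.37, 9.22, 10.02 and 9.29. Both exposed groups were wholly above the controls. The rises were 0.79 ± 0.15 (1.72-fold, adjusted p = 0.000568, limma) and 0.76 ± 0.15 (1.69-fold, adjusted p = 0.00128, limma). At 0.15 and 0.60 mg/m3 the means of 8.57 and 8.50 differed from the controls by -0.05 and -0.12 (adjusted p = 0.948 and 0.672, limma).

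Smooth muscle markers moved with Ptgis, an enzyme of vascular smooth muscle and endothelium. All 10 markers (contractile genes such as Acta2, Myh11 and Des) were called higher at 0.04 and at 0.08 mg/m3 after 4 weeks, where 8.29% and 5.67% of all genes were, and 0 of the 10 at 0.60 or 0.15 mg/m3 by limma, where 0 had an unadjusted p under 0.05 in either. Their mean level ranged over arrays from 7.59 to 7.82 in controls, 8.51 to 9.03 at 0.04 mg/m3, 8.24 to 9.26 at 0.08 mg/m3, 7.54 to 7.68 at 0.15 mg/m3 and 7.13 to 7.83 at 0.60 mg/m3. At 1 week, 9, 8, 9 and 9 of the 10 were called lower in order of concentration, against 11.8%, 23.5%, 33.7% and 32.3% of all genes. Heart muscle markers were higher too, 11 of 11 at 0.04 mg/m3 and 7 of 11 at 0.08 mg/m3 after 4 weeks. At 1 week their mean level did not follow Ptgis. It averaged 6.51 in controls, with arrays from 4.73 to 7.87, and 7.10, 7.52, 7.23 and 7.65 in order of concentration. Over the 10 group means, the genes most like Ptgis of 10472 compared were Rem1 (Pearson r = 0.997), Smtn (0.996) and Ramp1 (0.995), and Smtn is itself one of the markers. Fibroblast markers followed a like course. Their mean level after 4 weeks was 10.15 to 10.49 at 0.04 mg/m3 and 10.11 to 10.49 at 0.08 mg/m3, against 9.79 to 10.06 in controls. At 0.15 and 0.60 mg/m3 it averaged 9.94 and 9.99. At 1 week it was highest in controls (10.43). B cell markers averaged 7.25, 6.87, 5.76 and 6.50 in order of concentration after 4 weeks, against 5.86 in controls. Endothelial markers averaged 9.95, 9.84, 9.75 and 9.57 in order of concentration after 4 weeks, against 9.92 in controls. At 1 week they averaged 9.80, 9.67, 9.82 and 9.74, against 9.69 in controls. The share of muscle or of these other cells as a part of the Ptgis differences was not tested.

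**Figure D3:**
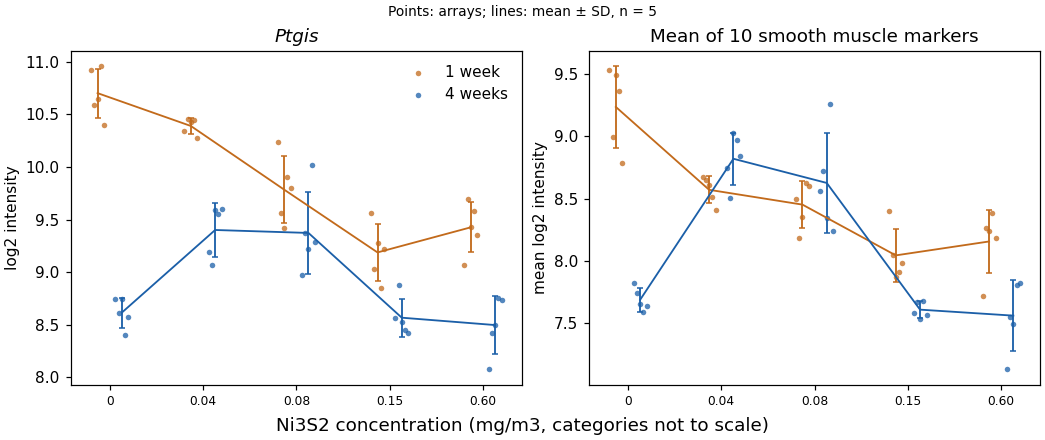
Ptgis (left) and the mean of 10 smooth muscle markers (right), log2 intensity by concentration (mg/m3, categories not to scale) for 1 week (orange) and 4 weeks (blue); points are arrays, lines means and bars the SD (n = 5). Both panels are highest in the 1-week controls (means 10.70 and 9.24) and, at 4 weeks, highest at 0.04 mg/m3 (9.40 and 8.82).

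Markers of other cells also moved at 4 weeks, against the shares of all genes given before for these comparisons (9.47% higher and 7.9% lower at 0.60 mg/m3, 1.92% and 1.58% at 0.15 mg/m3). At 0.60 mg/m3, 6 of 11 markers of recruited monocytes and macrophages were called higher and none lower, and their mean level was 8.25 to 8.63 against 7.70 to 8.05 in controls. In the same arrays 4 of 8 neutrophil markers were higher and 1 lower, with a mean level of 6.01 to 6.38 against 5.57 to 6.23, and 5 of 7 dendritic cell markers (6.19 to 6.55 against 5.52 to 5.80) and 5 of 9 T cell markers (6.59 to 7.35 against 6.14 to 6.42) were higher. At 0.15 mg/m3 the called markers were 2 of 7 of dendritic cells, 1 of 11 of monocytes and macrophages, 1 of 8 of neutrophils and 1 of 9 of T cells, all higher. The mean level of the dendritic cell markers there, 5.81 to 6.12, lay wholly above the controls. Those of monocytes and macrophages (7.96 to 8.16), neutrophils (6.02 to 6.32) and T cells (6.24 to 6.86) overlapped the controls, with group means above theirs (8.07 against 7.82, 6.19 against 5.80 and 6.50 against 6.27). B cell markers had a mean level of 6.30 to 6.79 at 0.60 mg/m3 against 5.68 to 6.07 in controls. At 0.15 mg/m3 they averaged 5.76 against 5.86. Alveolar macrophage markers overlapped the controls (8.51 to 8.85) at both concentrations, with 8.55 to 8.92 at 0.60 mg/m3 and 8.55 to 9.10 at 0.15 mg/m3. The part of all these cells in the rises was not tested.

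For the falls, 3 of 7 platelet markers were lower at 0.60 mg/m3, with a mean level of 4.99 to 5.20 against 5.30 to 5.45 in controls, and 0 of 7 were called by limma at 0.15 mg/m3 (1 at an unadjusted p under 0.05), where the mean level was 5.14 to 5.32. Of 7 club cell markers, 5 were lower at 0.60 mg/m3 and 4 at 0.15 mg/m3, and their mean level was 10.8 to 11.0 and 11.3 to 11.6 against 11.7 to 12.1. Of 9 endothelial markers, 4 were lower at 0.60 mg/m3 and 0 were called by limma at 0.15 mg/m3 (1 at an unadjusted p under 0.05). Of 6 eosinophil markers 1 was lower at each of these concentrations, and the mean level of the 6 was 4.96 to 5.21 at 0.60 and 5.22 to 5.31 at 0.15 mg/m3, both wholly below the controls (5.41 to 5.57). Of 10 mast cell markers 1 was lower at 0.60 mg/m3 and 0 were called by limma at 0.15 mg/m3 (1 at an unadjusted p under 0.05). Their part in the falls of Ptgs1, Pla2g2d, Alox5 and Ptgds was not tested.

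The step from 0.08 to 0.15 mg/m3 at 4 weeks was tested directly. It called 8 of 10 members, 2 higher and 6 lower, against 18.6% of all genes (8.05% higher and 10.5% lower, with arrays that did not overlap for 14%). With centred arrays the higher share of all called genes in this step went from 43.4% to 66.0%. Ptges rose by 1.96 ± 0.23 and Ptgs2 by 1.94 ± 0.25, with adjusted p = 2.11e-07 and 8.33e-07 (limma). Pla2g2d (-1.07), Ptgis (-0.81), Hpgds (-0.52), Ptgs1 (-0.46), Ptgds (-0.42) and Alox5 (-0.31) fell. Hpgds, Ptgds and Alox5 had adjusted p = 0.0467, 0.0401 and 0.0198 (limma) and were not called after the arrays were centred on their medians. Each also lost its call when 1 array was left out: 6 arrays in turn for Hpgds and Ptgds, and 2 for Alox5. Against controls, Ptgis and Hpgds at 0.15 mg/m3 differed by -0.05 and -0.16, both not called by limma. Mean marker levels at 0.08 and 0.15 mg/m3 were 8.63 and 7.61 for smooth muscle and 6.87 and 5.76 for B cells. For heart muscle they were 8.77 and 7.70. Others were higher at 0.15 mg/m3, such as those of neutrophils (5.94 and 6.19) and of alveolar type 1 cells (9.94 and 10.12). The part of these cells in the step was not tested.

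Between 0.15 and 0.60 mg/m3, 1 member was called, against 2.87% of all genes (1.91% higher and 0.953% lower; the higher share of called genes, 66.8%, was 46.1% with centred arrays), and the arrays of 4 members did not overlap against 7.47% of all genes. The member called was Pla2g2d, which fell further by 0.92 ± 0.20 (1.89-fold, adjusted p = 0.00397, limma). Ptgs2 differed by 0.05 ± 0.25 (adjusted p = 0.976) and Ptges by 0.44 ± 0.23 (adjusted p = 0.438, limma), although the arrays of Ptges did not overlap. Ptgs1 (-0.34, adjusted p = 0.056, limma) and Alox5 (-0.22, adjusted p = 0.294, limma) did not overlap either. The call of Ptgs1 depended on the setting: with the arrays centred it was -0.39 and called (adjusted p = 0.0223, limma).

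At 1 week the background was much larger. Of the members 6 were called at 0.60 mg/m3, 2 higher and 4 lower, against 65.1% of all genes (32.8% higher and 32.3% lower, without overlap for 53.5%). At 0.15 mg/m3 6 were called, 2 higher and 4 lower, against 67.4% (33.8% higher and 33.7% lower, without overlap for 55.2%), so neither share exceeds the background. The 2 members called at 0.08 mg/m3 were both lower, against 48.6% of all genes (25.1% higher and 23.5% lower, without overlap for 13.5%). The 5 called at 0.04 mg/m3 were 3 higher and 2 lower, against 26.9% (15.1% higher and 11.8% lower, without overlap for 11.4%). With centred arrays the last comparison called 5481 genes instead of 3614, and the higher share went from 56.3% to 81.7%. These comparisons also share controls, and any difference in processing between their groups cannot be told apart from concentration. Several of these comparisons moved when the position of each array on the main axis of spread within groups was added as a covariate. Those values are given beside the results. That position also carries differences between groups. It ran from 0.94 to 1.82 in the 1-week controls, but from -0.29 to 0.30 at 0.15 mg/m3 and from -0.051 to 0.25 at 0.60 mg/m3. In the 4-week controls it ran from -0.90 to -0.76. Where groups lie apart on it, the covariate takes up part of their difference, and a lost call decides nothing.

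Ptges at 1 week read 6.95, 6.45, 7.32, 7.13 and 6.31 in controls and 7.63, 7.28, 8.24, 7.30 and 7.56 at 0.60 mg/m3, with 1 control above the lowest 2 exposed arrays. The rise was 0.77 ± 0.23 (1.70-fold, adjusted p = 0.0037, limma), and the second probe set gave 0.75. At 0.15 mg/m3 the rise was 0.36 and not called, and with the spread covariate it was 1.14 and called (adjusted p = 0.00581, limma). Ptgs2 read 5.52, 5.25, 4.21, 5.04 and 5.02 in controls and 6.53, 6.34, 6.19, 5.47 and 6.04 at 0.60 mg/m3, where only the lowest exposed array lay within the controls. It rose by 1.11 ± 0.25 (2.16-fold, adjusted p = 0.000121, limma), but with the spread covariate this was 0.46 and no longer called (adjusted p = 0.285, limma). Its rise at 0.15 mg/m3 was 0.72 ± 0.25 (adjusted p = 0.00961, limma), a call lost without the third control array (adjusted p = 0.066, limma) or without the second exposed array (0.0554), and with the spread covariate it was -0.025.

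At the 2 lower concentrations of 1 week Ptgs2 was lower than in the controls. It fell by 0.75 ± 0.25 at 0.04 mg/m3 and by 0.58 ± 0.25 at 0.08 mg/m3 (adjusted p = 0.0239 and 0.0493, limma), with overlapping arrays. Its means there, 4.26 and 4.43, were low on the scale, where differences are compressed. The first call was lost when any of 4 arrays was left out and the second when any of 8 was. The first was also lost with the spread covariate (-0.49, adjusted p = 0.229, limma).

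Ptgis was lower than in controls at the 3 higher concentrations of 1 week. Its controls read 10.92, 10.59, 10.64, 10.96 and 10.40, and the arrays of 0.15 mg/m3 read 9.56, 9.03, 9.28, 8.85 and 9.22. It fell by 0.92 at 0.08 mg/m3, 1.51 ± 0.15 (2.86-fold, adjusted p = 1.07e-11, limma) at 0.15 mg/m3 and 1.28 ± 0.15 (2.42-fold, adjusted p = 1e-09, limma) at 0.60 mg/m3, with no overlap with the controls in these 3 comparisons. Set against the 4-week controls in place of those of 1 week, the same 1-week groups were higher, by 1.17, 0.57 and 0.81. Ptgis differs by -2.09 between the 4-week and the 1-week controls, and that difference is part of these values. They do not decide the direction against controls of the same time.

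The other members called at 1 week had changes under 1 on the log2 scale. Ptgds (-0.53 and -0.49) and Alox5 (-0.30 and -0.33) were lower at each of the 2 higher concentrations, and both were higher at 0.04 mg/m3 (0.81 and 0.45). With the spread covariate the values at the 2 higher concentrations were 0.029 and -0.0022 for Ptgds and 0.11 and 0.025 for Alox5, none of them called. These groups lay apart from their controls on that axis, so the covariate cannot decide on these falls. At 0.04 mg/m3 Hpgds fell by 0.84 ± 0.19 (1.79-fold, adjusted p = 0.00183, limma), with arrays of 5.63, 5.30, 5.50, 5.11 and 4.76 that lay below all 5 controls (5.70 to 6.43), and Tbxas1 rose by 0.50 (0.26 and not called with the spread covariate, adjusted p = 0.147, limma). In the same arrays 4 of 7 platelet markers and 4 of 8 neutrophil markers were higher, and 5 of 5 B cell markers were lower, against 15.1% of all genes higher and 11.8% lower. Tbxas1 fell by 0.47 at 0.15 mg/m3 and Hpgd rose by 0.48, a call lost without the third or the fourth control array (adjusted p = 0.0502 and 0.0564, limma). There the spread covariate gave 0.21 for Tbxas1 and -0.39 for Hpgd, both not called. The second probe set of Hpgd rose by 0.72 at 0.15 mg/m3 (adjusted p = 0.000877, limma). At 0.60 mg/m3 it rose by 0.59 (adjusted p = 0.00556, limma), where the main probe set read 0.24 and was not called. Pla2g2d fell by 0.52 at 0.60 mg/m3 (adjusted p = 0.022, limma), and leaving out any of 4 arrays, or adding the spread covariate (adjusted p = 0.0992, limma), ended that call. Between 0.60 and 0.15 mg/m3 at 1 week 0 members were called by limma (2 at an unadjusted p under 0.05), against 0.0149% of all genes (0.00744% in each direction, and 1.91% without overlap).

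Ptgs1 at 1 week depended on the probe set. The main probe set differed from controls by -0.02, 0.21, 0.13 and -0.10 in order of concentration, none of them called. The second, dimmer probe set (mean 4.71 against 8.37 over all arrays) was lower at all 4 concentrations, by 0.73, 0.68, 1.17 and 1.16 on the log2 scale. Which of them lies nearer to the RNA level was not tested.

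The controls themselves differed between the times. Of the members 5 were called, 2 higher and 3 lower at 4 weeks, against 73.5% of all genes (35.2% higher and 38.2% lower). The change of Ptges from the 1-week to the 4-week controls was -2.53 ± 0.23 on the log2 scale (5.79-fold lower, adjusted p = 4.18e-13, limma), with 3.97 to 4.62 against 6.31 to 7.32 at 1 week. That of Ptgis was -2.09 ± 0.15 (4.25-fold lower, adjusted p = 9.18e-16, limma) and that of Tbxas1 -0.94 ± 0.14 (1.92-fold lower, adjusted p = 3.52e-08, limma). Hpgd was higher by 1.34 ± 0.17 (2.54-fold, adjusted p = 3.34e-09, limma) and Hpgds by 0.52 ± 0.19 (adjusted p = 0.011, limma). Of these 5 calls 3 were lost with the spread covariate: Hpgd was 0.069 (adjusted p = 0.901), Hpgds 0.45 (adjusted p = 0.469) and Tbxas1 0.064 (adjusted p = 0.878, limma). Ptges, at a smaller value, and Ptgis stayed called. The controls of the 2 times did not overlap on that axis, so the covariate cannot decide whether they differ. The 4-week control level of Ptges is close to the bottom of the scale, so its fold is a rough value. For Ptges, Ptgis, Tbxas1 and Hpgd the control arrays of both times did not overlap, which held for 63.8% of all genes.

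**Figure D4:**
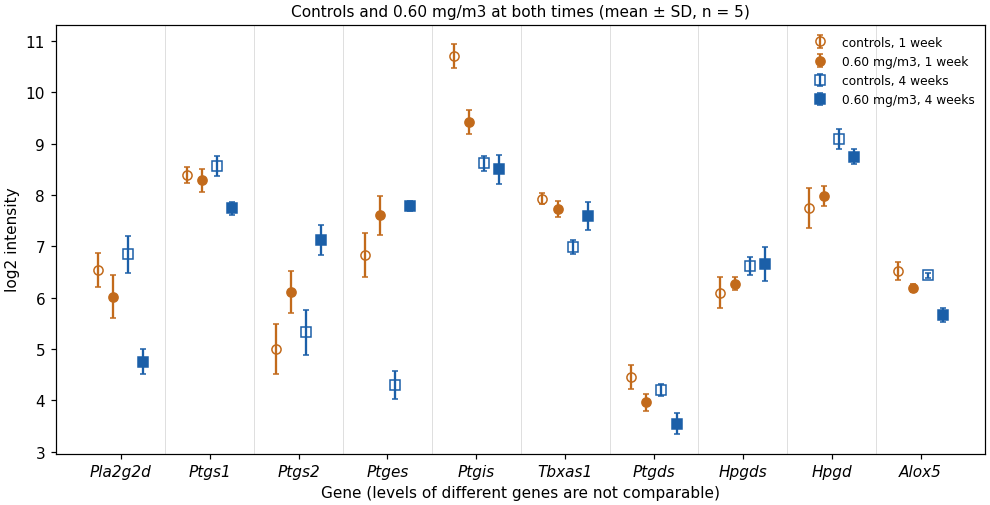
Mean log2 intensity ± SD (n = 5) of each member in the controls (open) and at 0.60 mg/m3 (filled) after 1 week (orange circles) and 4 weeks (blue squares). For Ptges the filled symbols of both times are close (7.60 and 7.79) and the open ones are not (6.83 and 4.30), while for Pla2g2d the controls are close (6.54 and 6.85) and the exposed groups are not (6.02 and 4.75).

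Differences between times in the response were tested directly, as the change at 4 weeks minus the change at 1 week. At 0.60 mg/m3, 7 members were called, 3 higher and 4 lower, against 56.7% of all genes (27.7% higher and 29% lower). Ptges differed by 2.72 ± 0.33 (adjusted p = 4.95e-09, limma), but its exposed levels were close at both times (7.60 ± 0.39 and 7.79 ± 0.10, SD) and its controls were far apart. For Pla2g2d (-1.57 ± 0.29, adjusted p = 8.91e-06, limma) and Ptgs1 (-0.72 ± 0.14, adjusted p = 3.37e-05, limma) the controls differed by 0.31 and 0.18, both not called, and the exposed groups by more. Ptgs2 differed by 0.68 ± 0.35 (adjusted p = 0.0935, limma), and without the third 1-week or the second 4-week control array it was called (0.88 and 0.83). For 0.15 mg/m3 6 members were called, 4 higher and 2 lower, against 56.8% (27.4% higher and 29.4% lower). For 0.08 mg/m3 3 were called, 2 higher and 1 lower, against 44.4% (21.4% higher and 23% lower). For 0.04 mg/m3 5 were called, 3 higher and 2 lower, against 12% (7.22% higher and 4.78% lower). With centred arrays this last contrast called 3011 genes instead of 1613, and the higher share went from 60.1% to 21.8%. On its second probe set the difference of Ptgs1 had the opposite sign, with 0.43 at 0.60 mg/m3 and 0.70 at 0.15 mg/m3. The difference of Tbxas1, 0.80 at both of these concentrations, was 0.26 at 0.60 mg/m3 and 0.18 at 0.15 mg/m3 with the spread covariate (adjusted p = 0.259 and 0.511, limma).

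Ordered by mean level, the 10 groups of each member show where neighbours separate by more than the larger SD of the pair. For Ptges the 7 highest groups, from 7.79 (0.60 mg/m3, 4 weeks) to 6.65 (0.04 mg/m3, 1 week), followed each other within that spread. Below them came 0.08 and 0.04 mg/m3 at 4 weeks (5.40 and 5.32), which did not separate, and then the 4-week controls (4.30), which did. For Ptgs2 the 0.60 and 0.15 mg/m3 groups of 4 weeks (7.13 and 7.08) led without separating and stood apart from 0.60 mg/m3 at 1 week (6.12). For Pla2g2d the 7 highest groups (6.99 to 6.49) did not separate, and 0.60 mg/m3 at 4 weeks (4.75) was below 0.15 mg/m3 at 4 weeks (5.67) by more than the spread. For Ptgs1 the only separated neighbours were 0.15 and 0.60 mg/m3 at 4 weeks (8.08 and 7.74), at the bottom.

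For Ptgis the 1-week controls (10.70), 0.04 mg/m3 (10.39) and 0.08 mg/m3 (9.78) at 1 week each stood apart from the next, and the 4-week groups of 0 (8.62), 0.15 (8.57) and 0.60 mg/m3 (8.50) closed the order unseparated. For Hpgd all 5 groups of 4 weeks (9.09 to 8.60) were above all 5 of 1 week (8.22 to 7.74). For Tbxas1 0.04 mg/m3 at 1 week led (8.43) and the 4-week controls were lowest (6.99), with no separation between neighbours after the first. For Ptgds and Alox5 0.04 mg/m3 at 1 week was highest (5.26 and 6.97) and 0.60 mg/m3 at 4 weeks lowest (3.55 and 5.66). For Hpgds 0.04 mg/m3 at 4 weeks was highest (7.16) and 0.04 mg/m3 at 1 week lowest (5.26), the latter separated from its neighbour.

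The members did not share 1 pattern over the 10 group means, which come from 5 arrays each and share controls and array processing. Ptgs2 ran against Alox5 (Pearson r = -0.91), Pla2g2d (-0.90) and Ptgs1 (-0.79), Pla2g2d ran with Ptgs1 (0.92), and Ptgs2 and Ptges correlated at 0.46. Hpgds ran against Tbxas1 (-0.90). Over the 5 group means of 4 weeks alone the values differed: Ptgs2 and Ptges correlated at 0.92, Ptges and Alox5 at -0.99 (-0.28 over all 10), and Hpgds and Tbxas1 at -0.45. Among the 10472 genes whose group means spanned at least 0.5, the closest to Ptges were Chia (0.968), Aldoc (0.958) and C2cd4b (0.949), and the closest to Ptgs2 were Hells (0.975), Ccne2 (0.972) and Idi1 (0.969). Pla2g2d was closest to Zfp423 (0.967), Slc47a1 (0.955) and Cyp2a3 (0.942), and Zfp423 was also the closest to Ptgs1 (0.943, then Trim16 at 0.934 and PCOLCE2 at 0.928). Alox5 was closest to Ttc38 (0.988), Pmm1 (0.982) and Ephx2 (0.978), Tbxas1 to Mfsd11 (0.987), Nfu1 (0.982) and Rab20 (0.981), and Hpgd to Stxbp6 (0.986), Mme (0.983) and Taf3 (0.981). Ptgds was closest to Dusp26 (0.981), Mamdc4 (0.974) and Echs1 (0.968), and Hpgds to Ripor2 (0.974), Txk (0.970) and Cpsf7 (0.969). With 10 points and many genes, high values of r are easily reached.

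The wider eicosanoid pathway was read from a second list. Of its 68 genes, none of them a member, 49 were measured. At 0.60 mg/m3 after 4 weeks 0 of them were called higher and 7 lower, with a median change of -0.11 against -0.0046 over all genes, where 9.47% of all genes were higher and 7.9% lower. At 0.15 mg/m3 0 were higher and 3 lower, where 1.92% of all genes were higher and 1.58% lower. None of the other 6 prostaglandin synthases measured was called by limma at 0.60 mg/m3 (0 at an unadjusted p under 0.05), among them the other prostaglandin E synthases Ptges2 (-0.22) and Ptges3 (0.14). None of the 8 prostanoid receptors was called by limma at 0.60 or 0.15 mg/m3 (1 at an unadjusted p under 0.05 at each). Of 11 other phospholipases A2, 1 was called at 0.60 mg/m3: Pla2g15, a lysosomal phospholipase, fell by 0.89 ± 0.14 (1.85-fold, adjusted p = 7.28e-06, limma).

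The other genes called at 0.60 mg/m3 were enzymes of breakdown and of the lipoxygenase branch. Ptgr1, which reduces the double bond of prostaglandin metabolites, fell by 0.76 ± 0.21 (1.69-fold, adjusted p = 0.00882, limma). Cyp4f4, an omega-hydroxylase of eicosanoids, fell by 0.63 ± 0.09 (1.54-fold, adjusted p = 6.59e-07, limma) from a level of 3.98. Of 17 leukotriene and lipoxygenase genes 4 were lower, led by the lipoxygenases Alox15 (-0.68) and Alox12 (-0.49), with Mgst3 (-0.38) and Lta4h (-0.23). The 3 called at 0.15 mg/m3 were Alox12 (-0.58), Akr1b8 (-0.56) and Cyp4f4 (-0.49). Alox15, Alox12 and Cyp4f4 were below 5 in the controls, where small differences are compressed.

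**Figure D5:**
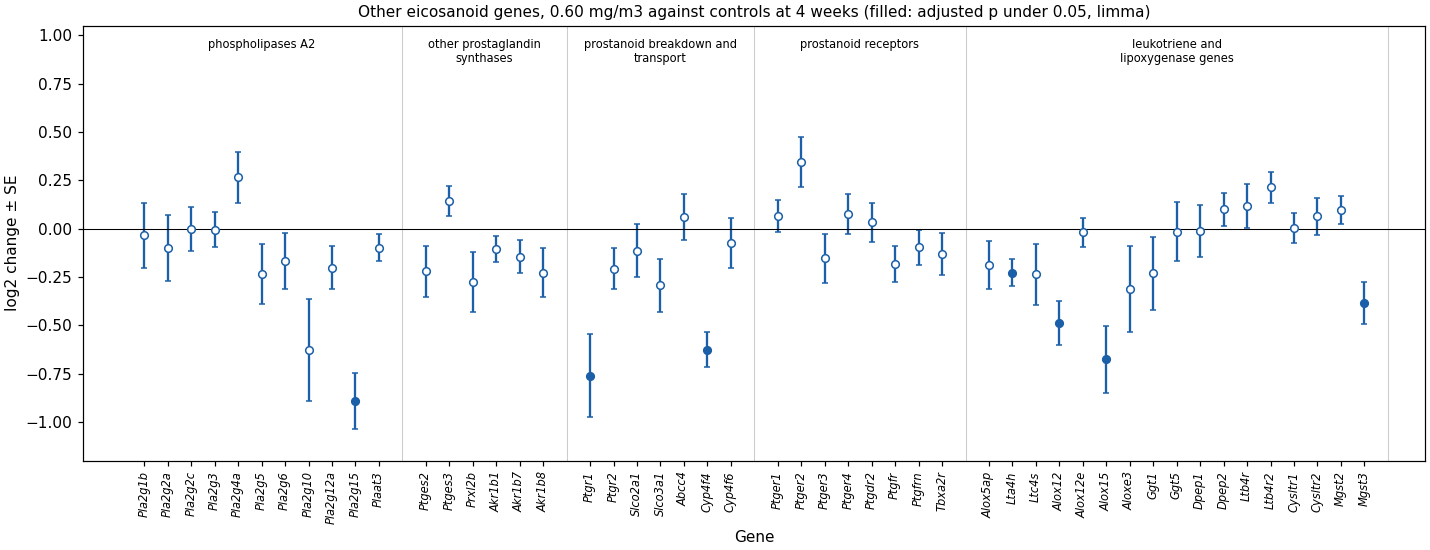
Log2 change ± SE at 0.60 mg/m3 against controls after 4 weeks for the 49 measured genes of the wider eicosanoid list, grouped by role; filled points had an adjusted p under 0.05 (limma, n = 5). The 7 filled points all lie below 0, from -0.89 (Pla2g15) to -0.23 (Lta4h).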

How the data were processed

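Expression was measured on 50 Affymetrix rat arrays, 5 for each of 10 groups. Per the submitters' processing notes, the authors made the deposited log2 values with RMA in Partek; for the versions used and the arrays normalised together, the sources used here name none. Array medians over 31042 probe sets ran from 5.25 to 5.61. The platform's gene table gave 1 symbol to 19063 probe sets, several to 572 and none to 11407, and only the first were used. Of the probe sets of a gene, that with the highest mean over the 50 arrays was kept, which left 13438 genes. Ptges, Ptgs1 and Hpgd had a second probe set.

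Each gene was fitted with 1 mean per group in limma 3.58.1 (R 4.3.3) with eBayes, without a filter or new normalization. P-values of 16 contrasts were two-sided, adjusted by Benjamini-Hochberg over all genes of a contrast, and called under 0.05. The fit was run on simulated data with independent noise for each gene and few changed genes. Those data lack the spread that genes share within groups here, so the run cannot show how the fit behaves under it. The members, lists and marker sets were chosen with earlier results of these data known. The text names all members, the 6 wider pathway genes with the largest called changes at 0.60 mg/m3 and the 4 (3 found) at 0.15 mg/m3 after 4 weeks, any prostanoid receptor called there, and for each member the 3 genes of most similar group means; Lta4h, Ptges2 and Ptges3 were added after their values were seen. Alternatives were array weights, leaving out the dimmest 25% of genes, median centring, quantile normalization, an intensity trend, the replicate number as a block, only the compared arrays, the mean of a gene's probe sets, a covariate for the main axis of spread within groups, 4-week controls for the 1-week groups, and leaving out each array in turn. The second probe set was an alternative chosen after seeing the data. The position on the spread axis also carries differences between groups. Replicate numbers did not pair the arrays.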

Additional observations from a re-analysis of the deposited data

Results flagged for a closer look

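In 8 of 100 sets of 5 arrays (1 member in 1 group), 1 array lay far from the other 4, with a gap, as a share of the range of the set, above the critical value of Dixon's test; chance gives about 1 in 20. At 4 weeks these were Ptgds replicate 3 at 0.04 mg/m3 (3.99, next 3.92), Pla2g2d replicate 1 at 0.08 mg/m3 (6.13, next 6.78), Pla2g2d and Tbxas1 replicate 5 at 0.15 mg/m3 (5.21, next 5.72, and 6.97, next 7.39) and Hpgd replicate 3 at 0.60 mg/m3 (8.99, next 8.72). At 1 week they were Hpgds replicate 4 and Pla2g2d replicate 1 at 0.15 mg/m3 (6.74, next 6.27, and 7.05, next 6.46) and Ptgds replicate 5 at 0.60 mg/m3 (4.25, next 3.93). Replicate 5 of 0.15 mg/m3 at 4 weeks was the array in 2 of the 8 sets.

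The change at 4 weeks differed from the change at 1 week by limma's test of the difference for the following members. At 0.04 mg/m3 the differences (log2, 4 weeks minus 1 week) were 1.37 for Hpgds, 1.21 for Ptges, 1.10 for Ptgis, -1.10 for Ptgds and -0.67 for Alox5. At 0.08 mg/m3 they were 1.67 for Ptgis, 0.93 for Ptges and -0.36 for Alox5. At 0.15 mg/m3 they were 2.70 for Ptges, 1.47 for Ptgis, 1.02 for Ptgs2, 0.80 for Tbxas1, -0.61 for Ptgs1 and -1.13 for Pla2g2d. At 0.60 mg/m3 they were 2.72 for Ptges, 1.16 for Ptgis, 0.80 for Tbxas1, -0.44 for Alox5, -0.58 for Hpgd, -0.72 for Ptgs1 and -1.57 for Pla2g2d. The controls of the 2 times differed as well for Ptges, Ptgis, Tbxas1, Hpgd and Hpgds, and their part in these differences was not tested. With 1 array left out, 3 of these calls could be lost: Hpgd at 0.60 mg/m3 (13 arrays in turn), Alox5 at 0.08 mg/m3 (5 arrays) and Ptges at 0.08 mg/m3 (replicate 3 of the 1-week controls, or replicate 1 of 0.08 mg/m3 at 4 weeks, without which it was 0.72 with adjusted p = 0.0606 by limma). The calls of Ptges at 0.04 and 0.08 mg/m3 rest on 1 probe set: the second gave 0.39 and 0.34 (adjusted p = 0.498 and 0.474, limma), and the mean of both 0.80 and 0.64 (adjusted p = 0.0976 and 0.107, limma). With the spread covariate the calls of Ptges at 0.08 mg/m3 (0.52, adjusted p = 0.23, limma) and of Tbxas1 at 0.15 and at 0.60 mg/m3 (0.18 and 0.26, adjusted p = 0.511 and 0.259, limma) were lost, and Hpgd at 0.60 mg/m3 was 0.11. On the second probe set of Hpgd the difference was called at each concentration. It was -0.94, -0.80, -0.96 and -0.99 in order of concentration (adjusted p from 0.00157 to 0.0154, limma).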

How the results depend on the processing

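At 4 weeks the counts at 0.60 mg/m3 (7 called) and 0.15 mg/m3 (5) stayed within 1.5 times under every setting run, and at 7 and 5 when any 1 array was left out. With 1 array left out, the count was 4 to 6 at 0.04, 1 to 2 at 0.08, 4 to 7 at 0.15 and 5 to 6 at 0.60 mg/m3 at 1 week, 2 to 3 at 0.04 and 2 to 3 at 0.08 mg/m3 at 4 weeks, and 5 to 6 between controls. It was 6 to 8 for 0.15 against 0.08 and 1 to 2 for 0.60 against 0.15 mg/m3 at 4 weeks, 0 for the latter pair at 1 week, and for the difference between times 5 to 5, 1 to 4, 6 to 7 and 6 to 7 in order of concentration. Counts moved by over 1.5 times as follows, and the cause was not tested. Array weights gave 4 at 0.08 mg/m3 at 1 week, 6 and 5 at 0.04 and 0.08 mg/m3 at 4 weeks and 3 for 0.60 against 0.15 mg/m3 at 4 weeks. Without the dimmest 25% of genes, Ptgds among them, there were 4 at 0.04 mg/m3 at 4 weeks and 2 for 0.60 against 0.15 mg/m3. Median centring and quantile normalization each gave 2 for 0.60 against 0.15 and 5 for 0.15 against 0.08 mg/m3 at 4 weeks; centring lowered the share of higher among called genes at 0.60 mg/m3 at 4 weeks from 54.5% to 37.1%. The replicate block and the mean of probe sets each gave 1 at 0.08 mg/m3 at 1 week, and the compared arrays alone 1 there, 6 at 0.04 mg/m3 at 4 weeks and 4 for 0.60 against 0.15 mg/m3 at 4 weeks. With the spread covariate there were 3, 4 and 2 at 0.04, 0.08 and 0.15 mg/m3 at 1 week, 3 between controls and 2 for 0.60 against 0.15 mg/m3 at 4 weeks. Against 4-week controls 8 and 5 were called at 0.04 and 0.08 mg/m3 at 1 week.

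Called values that changed sign were all in comparisons that use 1-week arrays. With the spread covariate these were, at 0.15 mg/m3 at 1 week, Ptgs2 -0.025, Ptgds 0.029, Hpgd -0.39, Alox5 0.11 and Tbxas1 0.21, and at 0.60 mg/m3, Hpgd -0.51, Alox5 0.025 and Tbxas1 0.39, with 0.11 for the difference of Hpgd between times at 0.60 mg/m3 and, between controls, 0.52 for Alox5 and 0.064 for Tbxas1. Against 4-week controls they were Ptges 2.35, Ptgis 1.77 and Hpgd -1.28 at 0.04 mg/m3, Ptgis 1.17, Hpgd -1.24 and Tbxas1 0.80 at 0.08 mg/m3, Ptgis 0.57, Hpgd -0.86 and Tbxas1 0.47 at 0.15 mg/m3, and Ptgis 0.81, Hpgd -1.10 and Tbxas1 0.73 at 0.60 mg/m3. The difference between the controls of the 1-week and 4-week times is part of each of these values. For Ptgs1 the mean of probe sets gave -0.52 at 0.15 mg/m3 at 1 week, 0.047 for its difference between times there and -0.34 between controls. Its second probe set gave -0.68 and -1.17 at 0.08 and 0.15 mg/m3 at 1 week, 0.94, 0.70 and 0.43 for the differences from 0.08 mg/m3 upward and -0.85 between controls. Of 1512 single values under other settings, 1361 kept their direction and their side of the threshold, 38 lost and 81 gained the call and 32 changed sign; values called in neither setting count as kept even where the sign changed (40). Of 2000 with 1 array left out these numbers were 1931, 54, 15 and 0 (50). Same-numbered arrays did not deviate together (at 0.60 mg/m3 at 4 weeks r was -0.35 to 0.39), so the block has no basis in pairing. Limits: 5 arrays a group chosen for RNA quality, unknown processing batches, and dim probe sets such as Ptgds near the bottom of the scale.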
